A study of Mus musculus with 12 samples.

Results

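The guanylate binding proteins (GBPs) were followed through the liver immune cells of mice on different diets by 8 genes, Gbp2, Gbp3, Gbp4, Gbp5, Gbp6, Gbp7, Gbp8 and Gbp9. They were taken by symbol from the 40840 genes listed in each library, whatever their values. RNA came from liver immune cells of male mice that were 8 to 10 weeks old when they stayed on normal chow diet (NCD) or moved to a high-fat diet (HFD, 20% fat by weight) for 12 weeks. Wild-type (WT) mice were labelled C57BL/6, and Casp11-/- mice were labelled B6.129S4(D2)-Casp4tm1Yuan/J, a line that lacks caspase-11, the product of Casp4. Each pairing of genotype and diet had 3 libraries, which gives 4 groups named by genotype and diet. The labels call the material hepatic macrophages, whereas the methods describe an immune cell fraction of dissociated liver, so each value is a mixture of cell types.

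GBPs are large GTPases that interferons induce strongly, interferon gamma above all, in macrophages and many other cells. They gather on vacuoles and on bacteria in the cytosol, and help to expose lipopolysaccharide to caspase-11, which cleaves gasdermin D and sets off pyroptosis. In the mouse they lie in gene clusters on chromosomes 3 and 5. Loss of the chromosome 3 cluster is known to blunt caspase-11 activation in macrophages infected with Gram-negative bacteria. The comparisons therefore ask whether the input side of the caspase-11 pathway differed with diet, and whether it differed between the genotypes.

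On the mouse build GRCm38 (mm10), the chromosome 3 members on the plus strand were Gbp5 (chr3:142493978-142522344), Gbp7 (chr3:142530342-142550149), Gbp3 (chr3:142560026-142573209) and Gbp2 (chr3:142620602-142638008). The chromosome 5 members on the minus strand were Gbp8 (chr5:105014150-105139540), Gbp9 (chr5:105077630-105139539), Gbp4 (chr5:105115767-105139586) and Gbp6 (chr5:105270702-105293698). The gene models of Gbp8, Gbp9 and Gbp4 overlapped and shared their 5′ end, so that a read from the shared first exons cannot be given to 1 of them. Coding sequences were most alike between Gbp6 and Gbp9 (89.6% identical bases) and least alike between Gbp5 and Gbp8 (51.0%). On chromosome 3, Gbp3 and Gbp7 were 76.2% identical and Gbp2 and Gbp5 66.7%.

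The stretch around the P-loop, the loop of the GTPase domain that holds the phosphates of GTP, is shown for all 8 members because it lets the reader see how far the copies can be told apart over the length of 1 read, 75 bases. The sequences were read 5′ to 3′ from coding exons of GENCODE release M21, and the capitals mark the codons for glycine, lysine and serine that end the P-loop motif.
Gbp2, chr3:142623799-142623873, plus strand: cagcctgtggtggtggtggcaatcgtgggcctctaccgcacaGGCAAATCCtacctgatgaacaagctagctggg
Gbp3, chr3:142561851-142561925, plus strand: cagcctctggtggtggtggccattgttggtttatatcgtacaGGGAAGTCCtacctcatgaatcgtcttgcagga
Gbp4, chr5:105136848-105136922, minus strand: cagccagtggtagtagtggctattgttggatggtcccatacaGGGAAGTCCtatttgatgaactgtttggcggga
Gbp5, chr3:142500662-142500736, plus strand: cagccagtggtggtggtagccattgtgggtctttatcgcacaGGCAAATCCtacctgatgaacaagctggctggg
Gbp6, chr5:105290847-105290921, minus strand: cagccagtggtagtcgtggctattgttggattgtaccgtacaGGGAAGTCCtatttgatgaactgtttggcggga
Gbp7, chr3:142534628-142534702, plus strand: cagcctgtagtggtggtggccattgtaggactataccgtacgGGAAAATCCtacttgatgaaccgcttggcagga
Gbp8, chr5:105050874-105050948, minus strand: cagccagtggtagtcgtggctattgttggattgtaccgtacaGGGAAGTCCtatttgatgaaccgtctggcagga
Gbp9, chr5:105105674-105105748, minus strand: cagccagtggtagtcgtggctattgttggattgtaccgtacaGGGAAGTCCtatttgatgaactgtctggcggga
In these windows Gbp6 differed from Gbp9 by 1 base and from Gbp8 by 3, and Gbp8 differed from Gbp9 by 2. Gbp2 and Gbp5 differed by 8 bases, while Gbp2 and Gbp4 differed by 24. The chromosome 5 copies were therefore separated by few bases here and the chromosome 3 copies by more.

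Over whole transcripts, the share of 75-base windows that also occurred in a transcript of another gene was 67.3% for Gbp6, against 11.3% for Gbp7 and 8.04% for Gbp8. The other 5 members lay between 0.578% for Gbp5 and 3.61% for Gbp9. The windows of Gbp6 were shared mainly with Gm43302 (61.7%) and with Gbp10 (40.4%), and those of Gbp7 mainly with Gm43802 (10.03%). How the authors' software divided such reads is not given in the sources used here, so the level of Gbp6 is uncertain as a value of that gene alone.

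**Figure D1:**
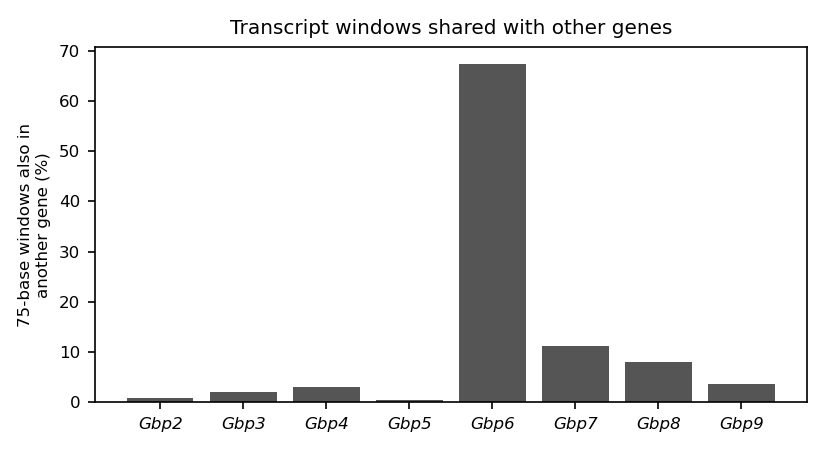
Bars give, for each of the 8 members, the percent of distinct 75-base windows of its GENCODE transcripts that also occur in a transcript of another gene. Gbp6 stands at 67.3%, and the other members lie between 0.578% and 11.3%.

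Promoters are shown as examples for Gbp5, Gbp7 and Gbp2, which each hold at least 1 of 2 motifs that interferon-activated factors are known to bind. The windows are the 180 bases before the annotated start in RefSeq (GRCm38.p6), and capitals mark matches, on either strand, to the gamma-activated site (TTCNNNGAA) or to the core of the interferon-stimulated response element (GAAA and GAAA with 2 bases between).
Gbp5, chr3:142496754-142496933, plus strand: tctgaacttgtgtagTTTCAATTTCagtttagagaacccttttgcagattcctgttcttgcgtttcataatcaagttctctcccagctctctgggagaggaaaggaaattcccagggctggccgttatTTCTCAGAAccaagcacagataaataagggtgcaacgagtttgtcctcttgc
Gbp7, chr3:142530156-142530335, plus strand: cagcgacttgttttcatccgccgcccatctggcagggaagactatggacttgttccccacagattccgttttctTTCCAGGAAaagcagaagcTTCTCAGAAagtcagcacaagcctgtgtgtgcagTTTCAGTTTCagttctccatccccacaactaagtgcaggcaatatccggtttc
Gbp2, chr3:142620483-142620662, plus strand: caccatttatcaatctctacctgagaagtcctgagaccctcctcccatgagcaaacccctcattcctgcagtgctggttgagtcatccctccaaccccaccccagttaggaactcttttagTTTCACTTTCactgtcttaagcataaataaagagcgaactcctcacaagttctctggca
Promoters of 4 members, Gbp2, Gbp3, Gbp5 and Gbp7, were found in the RefSeq table, and windows of 300 bases were searched. Gbp5 and Gbp7 each held 2 gamma-activated site matches, of which 1 of Gbp5 lies further upstream than the bases shown, and 8.30% of all 32851 promoters held at least 1. Gbp2 and Gbp3 held no such match. A core response element was found in 1 copy in Gbp2, Gbp5 and Gbp7 and in 2 overlapping copies in the first promoter of Gbp3, against 3.44% of all promoters. A match is a run of letters and not a measured binding site.

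Values were deposited as TPM, a measure of transcript abundance corrected for transcript length and library size, with a floor of 1.01, and no read counts were used here, so the depth behind each value is unknown. WT-NCD replicate 3 stood apart: its correlation with each other library over all genes was between -0.27 and -0.07, while the other 11 correlated at 0.85 to 0.99 with each other. It was left out of the main comparisons, which leaves WT-NCD with 2 libraries. Protein-coding genes took 22.3 to 42.4% of the TPM in the other NCD libraries and 15.7 to 25.2% in the HFD libraries, so results are given on the deposited scale and also after protein-coding genes were rescaled to sum to 1000000 in each library (rescaled value). Casp4 was at 5.60 to 15.6 TPM in the WT libraries fitted, and of the libraries labelled Casp11-/-, NCD replicate 3 (15.2 TPM) and HFD replicate 2 (8.68 TPM) fell inside that range while the other 4 lay between 2.56 and 4.93 TPM. Gene-level values do not say whether reads came from the deleted part, so the genotype is used here as labelled. Markers of other liver cells were present: 6 hepatocyte markers summed to rescaled values of 15217 to 73126, above the 363 to 3934 of 10 Kupffer cell and macrophage markers.

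All 8 members were above the floor in every library. Per length, Gbp2 was the highest member, with a mean of 35.1 TPM (SD 17.6, n = 11), and Gbp6 the lowest, with 4.98 TPM (SD 2.36). Between them stood Gbp9 at 19.3, Gbp4 at 17.7, Gbp5 at 12.98, Gbp7 at 12.6, Gbp3 at 8.29 and Gbp8 at 6.08 TPM. Gbp2 was above Gbp9 in 10 of the 11 libraries, Gbp4 above Gbp5 in all 11, and Gbp7 above Gbp3 and Gbp3 above Gbp8 in 10 each. The order of neighbours was not settled for Gbp9 and Gbp4 (7 of 11 libraries), Gbp5 and Gbp7 (6 of 11) or Gbp8 and Gbp6 (8 of 11), which differed by less than their spread. The order among the 8 was alike in the 11 libraries, with pairwise correlations of 0.81 to 0.99 over the members. WT-NCD replicate 3 did not share it, with correlations of -0.03 to 0.47 and all members between 2.11 and 5.42 TPM.

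Of the chromosome 3 members, Gbp2, which coats vacuoles and bacteria, stood at 33.7 and 32.3 TPM in WT-NCD, given here and below for replicates 1 and 2, and at 35.0, 27.02 and 76.0 TPM in WT-HFD. In the libraries labelled Casp11-/- it was at 41.4, 12.2 and 50.4 TPM on NCD and at 39.9, 15.1 and 23.5 TPM on HFD. WT-HFD replicate 3 was the highest and the WT diets overlapped. Gbp5, best known for promoting inflammasome activation, was at 10.97 and 11.7 TPM in WT-NCD, 12.96, 11.5 and 25.9 in WT-HFD, 13.1, 4.94 and 28.3 in Casp11-/- NCD and 7.75, 6.73 and 8.90 in Casp11-/- HFD. Every HFD library labelled Casp11-/- was below every WT-HFD library for Gbp5, as for 3.11% of all genes tested, whereas the NCD libraries spanned both. Gbp3 was at 7.79 and 8.36 TPM in WT-NCD, 9.26, 4.93 and 12.9 in WT-HFD, 9.48, 3.995 and 16.5 in Casp11-/- NCD and 5.02, 5.47 and 7.49 in Casp11-/- HFD, and both diets overlapped in each genotype. Gbp7, which has been tied to oxidative and autophagic defence in macrophages, was at 8.45 and 7.82 TPM in WT-NCD, 16.3, 9.86 and 22.2 in WT-HFD, 12.03, 5.90 and 18.8 in Casp11-/- NCD and 10.9, 11.1 and 14.8 in Casp11-/- HFD. All 3 WT-HFD libraries were above both WT-NCD libraries for Gbp7, as for 14.3% of all genes tested, and the diets overlapped in the mice labelled Casp11-/-.

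The chromosome 5 members are less well characterised one by one. Gbp9 was at 15.5 and 11.6 TPM in WT-NCD, 21.6, 14.1 and 25.9 in WT-HFD, 17.8, 7.56 and 50.9 in Casp11-/- NCD and 14.0, 12.6 and 21.1 in Casp11-/- HFD. Gbp4 was at 13.2 and 14.4 TPM in WT-NCD, 21.1, 13.6 and 27.3 in WT-HFD, 17.7, 7.94 and 34.2 in Casp11-/- NCD and 16.4, 11.3 and 17.2 in Casp11-/- HFD. For both genes Casp11-/- NCD replicate 3 was the highest of the 11 libraries and Casp11-/- NCD replicate 2 the lowest. Gbp8 was at 3.74 and 5.18 TPM in WT-NCD, 7.50, 4.63 and 14.3 in WT-HFD, 6.45, 2.03 and 11.4 in Casp11-/- NCD and 4.52, 3.43 and 3.75 in Casp11-/- HFD. Gbp6 was at 3.07 and 3.40 TPM in WT-NCD, 7.33, 4.74 and 10.3 in WT-HFD, 5.15, 1.94 and 6.01 in Casp11-/- NCD and 5.07, 2.80 and 4.90 in Casp11-/- HFD. Gbp8 repeated the pattern of Gbp5 between the genotypes on HFD (3.11% of all genes), though the nearest libraries stood at 4.52 and 4.63 TPM. Gbp6 repeated that of Gbp7 between the WT diets (14.3% of all genes).

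**Figure D2:**
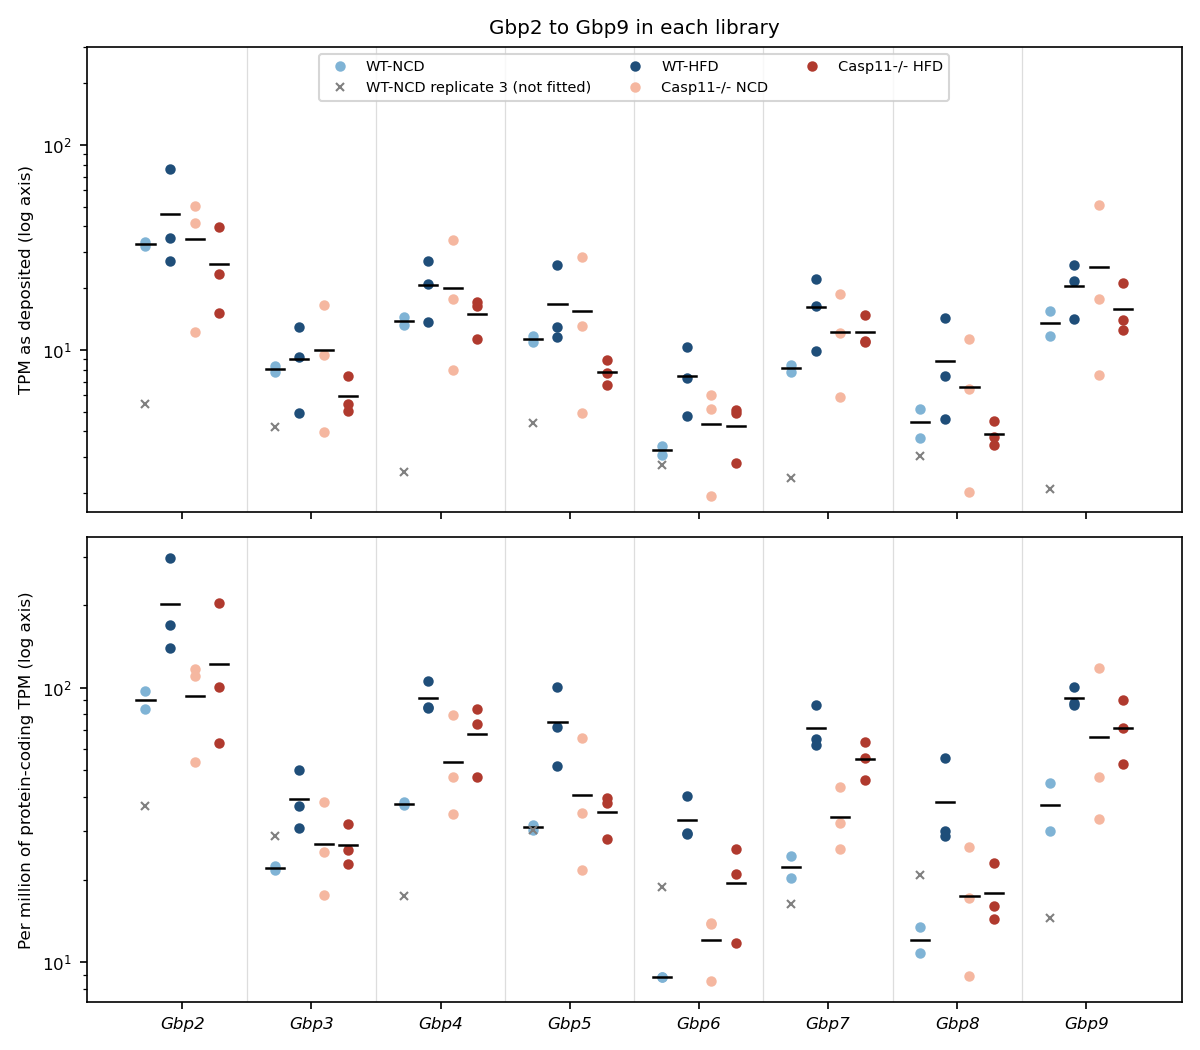
Each point is 1 library, coloured by group, with a black bar at the mean of the libraries fitted. The upper panel gives TPM as deposited and the lower panel the value per 1000000 of protein-coding TPM, both on log axes. In the lower panel the 3 WT-HFD libraries lie above the 2 fitted WT-NCD libraries for all 8 members, as for 31.8% of all genes. WT-NCD replicate 3 (grey cross) was not fitted.

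HFD against NCD in WT mice gave higher mean values for all 8 members, but on the deposited scale none passed the test. The log2 fold changes, on the log2(TPM + 1) scale, ran from 0.06 for Gbp3 to 0.95 for Gbp6 with a median of 0.51, against a median of -0.27 over all 17950 genes tested. With limma and Benjamini-Hochberg adjustment over all genes, 0 of 8 members were called at an adjusted p under 0.05 (lowest adjusted p = 0.377, Gbp6), where 2.18% of all genes were called, and 0 had an unadjusted p under 0.05, against 15.2% of all genes. Gbp6 and Gbp7 were higher in every WT-HFD library than in both WT-NCD libraries, as were 14.3% of all genes tested.

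After protein-coding genes were rescaled, every WT-HFD library was above both WT-NCD libraries for all 8 members, which was also so for 31.8% of all genes. Gbp7 was at rescaled values of 24.4 and 20.3 in WT-NCD and at 65.3, 61.7 and 86.3 in WT-HFD, and rose by a log2 fold change of 1.62 (SE 0.31, adjusted p = 0.0349 with limma). Gbp6 was at 8.86 and 8.82 in WT-NCD and at 29.3, 29.7 and 40.3 in WT-HFD, and rose by 1.78 (SE 0.37, adjusted p = 0.0418). These 2 of 8 members were called, against 0.954% of all 12368 genes tested (0.606% called higher). The other 6 did not pass, with log2 fold changes from 0.78 (SE 0.36) for Gbp3 to 1.52 (SE 0.44) for Gbp8 and adjusted p values from 0.116 to 0.252. The median over the members was 1.27, against 0.10 over all genes, and all 8 had an unadjusted p under 0.05, as did 19.7% of all genes.

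These 2 calls rested on few libraries. Without any 1 of WT-NCD replicates 1 or 2 or WT-HFD replicates 1, 2 or 3, 0 of 8 members were called on the rescaled values, where 0.0489, 0.0163, 0.122, 0.154 and 0.472% of all genes were called in that order, and with WT-NCD replicate 3 added the count was also 0 (0.102% of all genes called). Leaving out Casp11-/- HFD replicate 3 left 1 call, Gbp7 (0.707% of all genes called). Without Casp11-/- NCD replicate 2 there were 3 calls, Gbp6, Gbp7 and Gbp8 (3.28%), and without Casp11-/- NCD replicate 3 there were 4, Gbp4, Gbp6, Gbp7 and Gbp9 (2.77%). The 10 Kupffer cell and macrophage markers moved in the same direction: their summed rescaled value was 416 to 642 in WT-NCD and 2126 to 3934 in WT-HFD. On HFD averaged over the genotypes 8 of 10 were called higher, with 9 above the floor in all 11 libraries. That average, on the rescaled values, called 14.6% of all genes in either direction and 8.1% of all genes higher. B cell markers moved the other way, from 3314 to 4098 in WT-NCD to 854 to 1208 in WT-HFD, with 6 of 6 called lower in the average. Dendritic cell markers went from 169 to 194 in WT-NCD to 391 to 597 in WT-HFD (2 of 6 called higher in the average), and NK cell markers from 750 to 942 to 340 to 343 (3 of 6 called lower). Sinusoidal endothelial markers, at 614 to 1175 in WT-NCD and 1165 to 2463 in WT-HFD, had 5 of 6 called higher in the average. The part of these markers in the Gbp values was not tested, and in bulk RNA more cells of a type cannot be told apart from more RNA per cell.

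**Figure D3:**
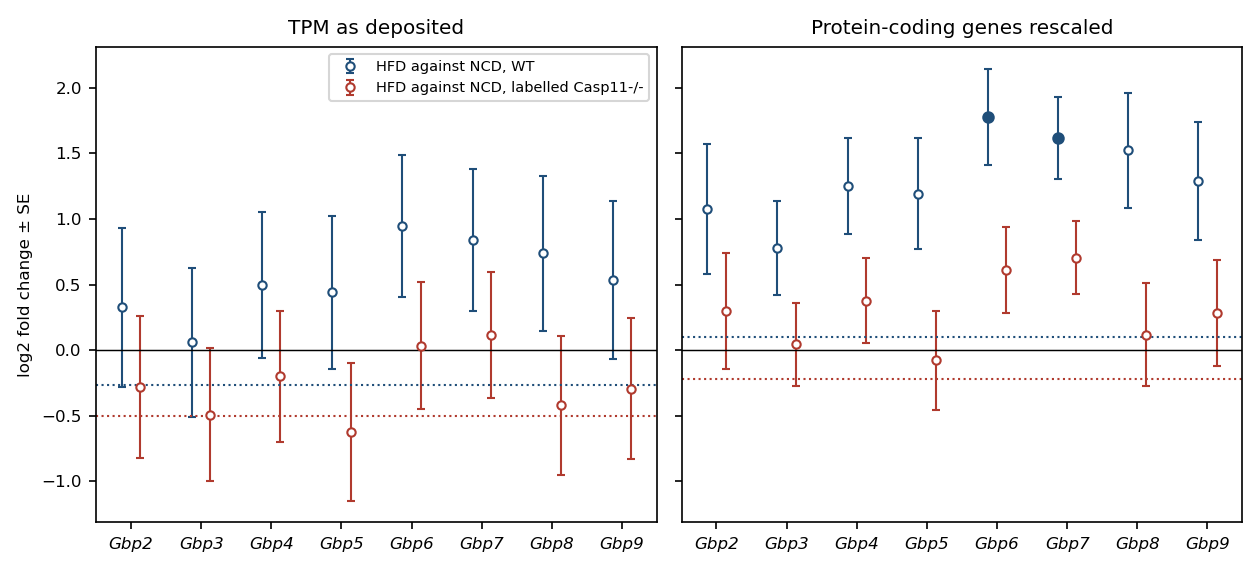
Points are log2 fold changes of HFD against NCD for each member with SE bars, in WT (blue) and in mice labelled Casp11-/- (red), on the deposited scale at left and the rescaled one at right. Filled points had an adjusted p under 0.05, and dotted lines give the median of all genes in the same comparison. Filled points are Gbp6 and Gbp7 in WT on the rescaled values.

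In mice labelled Casp11-/-, HFD against NCD called 0 of 8 members on either scale, with 1.1% of all genes called on the deposited scale and 3.53% on the rescaled values. On the deposited scale 6 members were lower and 2 higher, with log2 fold changes from -0.63 (Gbp5, SE 0.52) to 0.12 (Gbp7, SE 0.48) and a median of -0.29 against -0.51 over all genes. After rescaling 7 were higher and 1, Gbp5, lower (-0.08, SE 0.38), with a median of 0.29 against -0.22 over all genes. Gbp7 was the member furthest from 0 there, at 32.2, 25.9 and 43.5 on NCD and 55.6, 46.3 and 63.4 on HFD, without overlap, as was so for 6.65% of all genes. Its log2 fold change of 0.71 (SE 0.28) did not pass (adjusted p = 0.146 with limma), though it was the 1 member with an unadjusted p under 0.05, which 24.8% of all genes had. The sign of most members depended on the scale and on single libraries. Without Casp11-/- NCD replicate 3, in which Casp4 was at 15.2 TPM, Gbp9 stood at 0.38 and Gbp4 at 0.28 on the deposited scale. Without Casp11-/- NCD replicate 2, the lowest library, Gbp5 stood at -1.22 there and was called lower (adjusted p = 0.0289 with limma), in a fit that called 49.1% of all genes and had a median of -0.81 over them. With both libraries whose Casp4 lay in the WT range left out, the rescaled log2 fold changes ran from 0.42 (Gbp3) to 1.03 (Gbp6), still with 0 of 8 called (2.4% of all genes) and adjusted p values from 0.105 to 0.524.

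Averaged over the genotypes, HFD against NCD called 0 of 8 members on the deposited scale, where 18.3% of all genes were called and 17.3% were called lower. After rescaling, 3 of 8 rose: Gbp7 by a log2 fold change of 1.16 (SE 0.21, adjusted p = 0.00605), Gbp6 by 1.19 (SE 0.25, adjusted p = 0.0104) and Gbp4 by 0.81 (SE 0.24, adjusted p = 0.0425), all with limma. Of all genes, 14.6% were called there and 8.1% called higher. The other 5 had log2 fold changes from 0.41 (Gbp3) to 0.82 (Gbp8) and adjusted p values from 0.074 to 0.24. Gbp6 and Gbp7 were called in 10 of the 11 fits that left out 1 library and Gbp4 in 3 of them. The exception for Gbp6 and Gbp7 was the fit without WT-NCD replicate 2, in which 0 of 8 and 1.86% of all genes were called, and with all 12 libraries 1 was called, Gbp7 (3.61% of all genes).

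On HFD, all 8 members had a lower mean in mice labelled Casp11-/- than in WT, and none passed the test on either scale. Log2 fold changes on the deposited scale ran from -0.94 (Gbp5, SE 0.52) to -0.31 (Gbp7, SE 0.48), with a median of -0.56 against -0.04 over all genes, and the adjusted p was 1 for each. Of all 17950 genes, 0 were called, and 0 members but 135 genes (0.752%) had an unadjusted p under 0.05. After rescaling the median was -0.65 against -0.07, again with 0 of 8 members and 0% of all genes called, and Gbp5 (-1.03, SE 0.38), Gbp6 (-0.79, SE 0.33) and Gbp8 (-1.02, SE 0.39) had an unadjusted p under 0.05, as did 2.37% of all genes. Gbp5 was at rescaled values of 51.9, 72.1 and 101 in WT and 39.6, 28.2 and 38.1 in mice labelled Casp11-/-, and Gbp8 at 30.0, 28.9 and 55.7 against 23.1, 14.3 and 16.1. For Gbp4, Gbp5, Gbp6 and Gbp8 (4 of 8) every Casp11-/- HFD library was below every WT-HFD library on the rescaled values, as was so for 7.67% of all genes, and for 2, Gbp5 and Gbp8, on the deposited scale (3.11%). Without the library labelled Casp11-/- HFD replicate 2, together with Casp11-/- NCD replicate 3, Gbp5 stood at -0.88 (SE 0.33) and Gbp8 at -0.89 (SE 0.39) on the rescaled values, and the adjusted p was 0.999. The summed Kupffer cell and macrophage markers were at 2126 to 3934 in WT-HFD and 1696 to 2354 in Casp11-/- HFD. Dendritic cell markers were at 391 to 597 against 200 to 335, and T cell markers at 374 to 581 against 218 to 265, without overlap. The other marker lists overlapped, with neutrophil markers at 992 to 1524 in WT-HFD and 448 to 13566 in Casp11-/- HFD. The part of these markers in the Gbp differences was not tested.

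On NCD, 7 of 8 members had a positive log2 fold change in mice labelled Casp11-/- on the deposited scale and Gbp2 a negative one, with a median of 0.26, 0 of 8 called and 0.0557% of all genes called. The direction rested on Casp11-/- NCD replicate 3: without it, Gbp3, Gbp4, Gbp5, Gbp8 and Gbp9 turned lower. The difference between the diet effects of the genotypes, tested as an interaction, was negative for all 8 members, from -1.16 (Gbp8, SE 0.80) to -0.55 (Gbp3, SE 0.76) on the deposited scale. It called 0 of 8 (0.00557% of all genes) with an adjusted p of 1 for each, and 0 members had an unadjusted p under 0.05 (2.6% of all genes). After rescaling it ran from -1.41 (Gbp8, SE 0.59) to -0.74 (Gbp3, SE 0.48), called 0 of 8 and 0% of all genes (lowest adjusted p = 0.874), and had an unadjusted p under 0.05 for Gbp5, Gbp6, Gbp7 and Gbp8, as for 5.37% of all genes. A different diet effect between the genotypes was thus not shown for any member.

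Summed over the 8 members, the value was 96.5 and 94.8 TPM in WT-NCD, 131, 90.4 and 215 in WT-HFD, 123, 46.5 and 216 in Casp11-/- NCD and 104, 68.4 and 102 in Casp11-/- HFD. The sum differed as much between libraries of 1 group as between groups. On the rescaled values the sum was 279 and 246 in WT-NCD, 524, 566 and 836 in WT-HFD, 329, 204 and 502 in Casp11-/- NCD and 528, 287 and 435 in Casp11-/- HFD. The WT-HFD mean of 642 (SD 169, n = 3) was 2.45 times the WT-NCD mean of 262 (SD 23.4, n = 2), and higher in 6 of 6 pairs of libraries, whereas the ratio of the mean TPM was 1.52 with 4 of 6 pairs. In mice labelled Casp11-/- the ratio of the HFD mean to the NCD mean was 1.21 on the rescaled values and 0.709 in TPM. That TPM ratio was 0.537 without Casp11-/- NCD replicate 2 and 1.08 without Casp11-/- NCD replicate 3, so that its direction rested on the latter library. The Casp11-/- HFD mean was 0.649 times the WT-HFD mean on the rescaled values and 0.627 times in TPM. Without WT-HFD replicate 3 it was 0.764 times on the rescaled values and 0.824 times in TPM. Without that library the WT ratio of the HFD mean to the NCD mean was 2.08 on the rescaled values and 1.16 in TPM. WT-NCD replicate 3 had a sum of 26.8 TPM, or 184 rescaled. These sums are descriptions and were given no test.

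**Figure D4:**
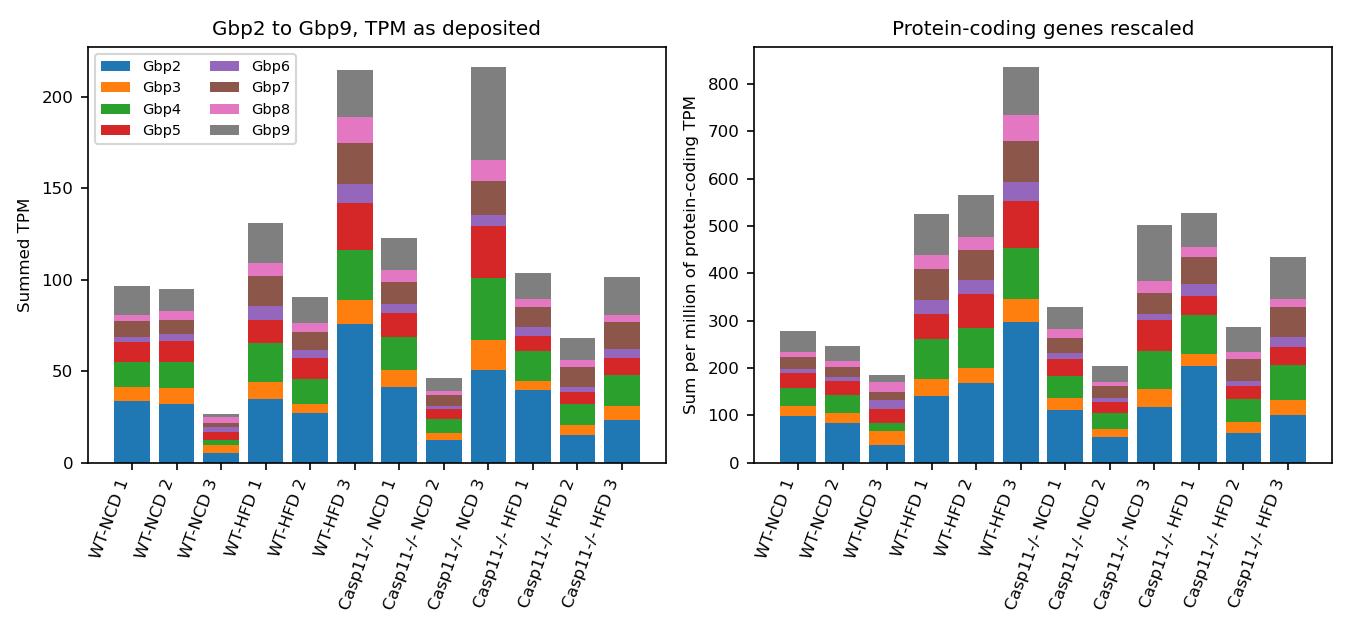
Each bar is 1 library, stacked by member, with the summed TPM at left and the sum per 1000000 of protein-coding TPM at right, both from 0. At right the WT-HFD bars reach 524 to 836 and the WT-NCD bars of replicates 1 and 2 reach 279 and 246, while at left WT-HFD replicate 2 stands at 90.4.

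The share of each member in the summed value does not depend on the scale. Gbp6 made up 2.78 to 4.18% of the sum in the 5 fitted NCD libraries and 4.09 to 5.60% in the 6 HFD libraries, and the HFD library was higher in 28 of 30 pairs. Gbp7 made up 8.25 to 12.7% on NCD and 10.3 to 16.2% on HFD (26 of 30 pairs). Gbp3 went the other way, with 7.64 to 8.82% on NCD and 4.85 to 7.99% on HFD, where the HFD library was higher in 2 of 30 pairs, and Gbp5 was higher in 7 of 30. Gbp2, Gbp4, Gbp8 and Gbp9 lay between 14 and 17 of 30 pairs. The members also varied together: over the 11 libraries their pairwise correlations on the log2 rescaled values were 0.68 to 0.95, with a median of 0.87, points that share library and scaling. In WT-NCD replicate 3 the shares were different, with Gbp6 at 10.2% and Gbp2 at 20.2%.

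Of the 3 other annotated Gbp genes, Gbp10 rose in WT mice on HFD on the rescaled values. Gbp2b, the former Gbp1, was listed at the floor of 1.01 TPM in the 5 fitted NCD libraries and at 5.66, 1.42 and 6.20 TPM in WT-HFD. It passed the filter on low values only through HFD libraries, so no fold or test is given for it. Gbp10 was at rescaled values of 4.81 and 4.23 in WT-NCD and 14.9, 21.1 and 21.03 in WT-HFD, a log2 fold change of 1.85 (adjusted p = 0.0388 with limma), and shares sequence windows with Gbp6. Its WT-NCD values of 1.66 and 1.63 TPM were near the floor, which limits this fold change. WT-NCD replicate 3, not fitted, had a rescaled value of 25.9. The rescaled WT calls of Gbp10 and of the gene lists below came from the fit that called Gbp6 and Gbp7. That fit called 0.954% of all genes (0.606% higher), against 0.102% with all 12 libraries and 0.122% without WT-HFD replicate 1. Which of these genes stayed called there is not given here. On the deposited scale Gbp10 was not called in WT. Gbp11 was at the floor in 8 of the 11 libraries.

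Immunity-related GTPases are the related interferon-induced family that acts on vacuoles beside GBPs. In WT on HFD 2 of 10 were called higher on the rescaled values, where 0.606% of all genes were called higher. Their median log2 fold change was 0.94, against 0.10 over all genes. Iigp1 was at 29.2 and 22.1 in WT-NCD and 161, 152 and 118 in WT-HFD (log2 fold change 2.44, adjusted p = 0.0326), and Irgm2 at 21.4 and 25.4 against 72.3, 99.1 and 83.6 (1.81, adjusted p = 0.0418). Iigp1 was also called in mice labelled Casp11-/- (1.98, adjusted p = 0.0279 with limma), where 3.53% of all genes were called. Irgm2 had a value of -0.02 there. Tgtp1 joined Iigp1 and Irgm2 in the average over genotypes (1.07, adjusted p = 0.0425 with limma), where 8.1% of all genes were called higher. Igtp did not pass in WT (0.91, adjusted p = 0.239). On the deposited scale 0 of 10 were called within a genotype, while in the average Iigp1 was called higher. That average called 18.3% of all genes, and 17.3% of all genes lower. Irgc1 was also called there, lower, but stood at the floor in all HFD libraries and passed the filter only through NCD ones.

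Of 13 tested genes of interferon gamma signalling, 0 were called within either genotype on either scale. Their median log2 fold change in WT was 0.03 on the rescaled values, against 0.10 over all genes. Ifng itself, the inducing cytokine, was at rescaled values of 36.1 and 63.2 in WT-NCD and 13.4, 9.77 and 32.3 in WT-HFD (log2 fold change -1.50, adjusted p = 0.171). NK cells are a main source of Ifng, and their summed markers were also lower in WT-HFD, at 340 to 343 against 750 to 942, whose part in the Ifng values was not tested. Irf1, which induces Gbp genes, was at 0.10 (adjusted p = 0.912) in WT. In the average over genotypes on the rescaled values, Cxcl9, an interferon gamma-induced chemokine, rose (1.60, adjusted p = 0.0183 with limma). Ciita, the regulator of MHC class II genes, fell there (-1.08, adjusted p = 0.0283 with limma), and 14.6% of all genes were called. On the deposited scale 4 were called lower in the average, Ifng, Irf8, Socs1 and Ciita, and 0 higher. There 18.3% of all genes were called in either direction and 17.3% were called lower.

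Of 16 tested type I interferon targets, 3 rose in WT on HFD on the rescaled values: Ifi44 (log2 fold change 2.87, adjusted p = 0.0124), Ifit1 (1.91, adjusted p = 0.0418) and Ifit2 (1.90, adjusted p = 0.0418). Of all genes, 0.606% were called higher there. These WT calls share the limit given above for Gbp10. Ifi44 was near the floor of 1.01 TPM on NCD, at 1.70 and 1.40 TPM in WT and 1.01, 1.14 and 2.82 in Casp11-/-, which limits its fold changes. In mice labelled Casp11-/- 3 rose as well (3.53% of all genes called): Ifi44 (2.52, adjusted p = 0.0169), Ifit3 (1.54, adjusted p = 0.0279) and Ifit1 (1.60, adjusted p = 0.0312). In the average 6 of 16 rose, Ifit1, Ifit2, Ifit3, Oasl2, Rsad2 and Ifi44, where 8.1% of all genes were called higher. On the deposited scale 0 of 18 were called within a genotype and 1, Ifi44, in the average (1.73, adjusted p = 0.00228). Of 12 noncanonical inflammasome genes, 1 was called in WT, Pycard, which encodes the inflammasome adaptor ASC. Pycard fell on both scales (-2.73, adjusted p = 0.00839 with limma, on the deposited scale). In WT 2.18% of all genes were called on the deposited scale and 0.954% on the rescaled values. Casp4 (-0.08, adjusted p = 0.934) and Gsdmd (-0.14, adjusted p = 0.862) did not pass on the rescaled values in WT, and 0 of 12 were called in mice labelled Casp11-/-. In the average over genotypes, Tlr4 was called higher and Pycard and Ticam1 lower on the rescaled values, where 14.6% of all genes were called. On the deposited scale Pycard, Ticam1 and Irf3 were called lower in the average (18.3% of all genes called).

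The genes whose pattern was most like the summed Gbp value were sought among 11711 protein-coding genes without a Gbp symbol, by Pearson's r of log2 rescaled values over the 11 libraries. They were Fundc1, a receptor for the removal of mitochondria (r = 0.96), B2m, the light chain of MHC class I (0.95), Metap2, a methionine aminopeptidase (0.95), Ly6i, a Ly6 family surface protein (0.94), and Rab5a, a GTPase of early endosomes (0.94). Spearman's rho for these 5 was 0.91 to 0.95, and without the 2 libraries furthest from the median of the sum r was 0.88 to 0.94. Irgm1 came at rank 7 (r = 0.94) and Tgtp1 at rank 9, while Irf1 stood at 0.42, Casp4 at 0.31 and Gsdmd at 0.10. Such values, chosen as the highest of many and over libraries that share scaling, are a description. On the deposited scale 1 of these 5 genes, Fundc1, stayed among the first 5, and with all 12 libraries 2, Metap2 and Rab5a.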

How the data were processed

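RNA of liver immune cells from 12 libraries was sequenced by the authors with a stranded total RNA kit (single-end reads of 75 bases), aligned with STAR to mm10 (GRCm38.p6 per the labels) and expressed as TPM. The deposited TPM values were treated as a score, since they have a floor of 1.01 and do not sum to exactly 1000000, and the 6 rows without a gene name per file were dropped. Depth is unknown. Replicates were compared and no 2 libraries were identical. The RNA-sequencing methods give no number of mice, and a figure caption of the paper gives n = 3 for these groups. That each library came from a separate mouse is therefore assumed here.

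Here, the genes that exceeded the floor in 3 or more of the 11 libraries were tested with limma 3.58.1 (trend, R 4.3.3) on log2(TPM + 1) with 1 mean per group and Benjamini-Hochberg adjustment, called at 0.05. WT-NCD replicate 3 was left out because its values correlate negatively with every other library. The scripts were tested on simulated data. An alternative rescaled the 21702 listed genes that RefSeq marks as protein-coding to a total of 1000000. Of these, 96.2% also had a gene of the same name in GENCODE release M21. Others changed the filter, the pseudocount (0.1), the removal of the top 1% of genes, the libraries and the replicate block. Leaving out libraries on the rescaled values, and both libraries labelled Casp11-/- whose Casp4 lay in the WT range, was added after seeing the data.

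Sequences came from GENCODE M21 and RefSeq. The members and lists were chosen with earlier results of these data known. The text names the 8 members, called genes of the lists with Irf1, Ifng, Casp4, Gsdmd and Igtp, and the 5 genes most like the sum; 1 further gene is not reported here. Replicate numbers were not used to pair libraries in the main fit. Deviations of same-numbered libraries correlated at -0.33 to 0.47 and those of differently numbered ones at -0.57 to 0.47. These overlapping ranges cannot decide whether the numbers pair libraries.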

Additional observations from a re-analysis of the deposited data

How the results depend on the processing

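No Gbp member was called on the deposited scale under another filter, a pseudocount of 0.1 or all 12 libraries. Rescaling protein-coding genes called 2 members for diet in WT and 3 for diet averaged over both genotypes, removing the top 1% of genes and rescaling the rest called 2 and 5 (1.74% and 38.2% of all genes), and rescaling with all 12 libraries called 0 and 1. On the rescaled values, estimating the spread from only the groups compared called 7 members in WT (16.1% of all genes), and leaving out both Casp11-/- libraries in the WT range of Casp4 called 6 in the average (13.9%). Leaving out 1 library at a time gave 0 to 4 calls in WT (0.0163 to 3.28% of all genes) and 0 to 6 in the average (1.86 to 33.0%; 15.7% where 6 were called) on the rescaled values, and 0 to 1 for diet in Casp11-/- on the deposited scale (49.1% of all genes where 1 was called). The cause was not tested.

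Signs of log2 fold changes that missed the threshold turned with the scale. For diet in Casp11-/-, Gbp2, Gbp3, Gbp4, Gbp8 and Gbp9 became 0.30, 0.043, 0.38, 0.12 and 0.28 with protein-coding genes rescaled (with 11 or 12 libraries), and 0.34, 0.084, 0.42, 0.16 and 0.33 with the top 1% removed. For diet averaged over both genotypes, Gbp3 and Gbp5 became 0.41 and 0.56 with protein-coding genes rescaled, 0.35 and 0.56 with all 12 rescaled, and 0.39 and 0.54 with the top 1% removed. With all 12 libraries Gbp5 became 0.11 in the average and Gbp2 0.65 for genotype on NCD (0.39 rescaled). Without both Casp11-/- libraries in the WT range of Casp4, Gbp2, Gbp4, Gbp5, Gbp8 and Gbp9 became 0.42, 0.46, 0.023, 0.11 and 0.52 for diet in Casp11-/-, Gbp3 and Gbp5 0.022 and 0.23 in the average, Gbp3, Gbp4, Gbp5, Gbp8 and Gbp9 -0.33, -0.20, -0.43, -0.19 and -0.19 for genotype on NCD, and Gbp2 0.092 for the interaction.

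Leaving out 1 library at a time, the log2 fold change for diet in WT ran from -0.10 to 0.63 for Gbp2 and from -0.22 to 0.40 for Gbp3. For diet in Casp11-/- it ran from -0.89 to 0.093 for Gbp2, -0.71 to 0.28 for Gbp4, -0.35 to 0.27 for Gbp6, -0.29 to 0.47 for Gbp7, -0.97 to 0.038 for Gbp8 and -0.92 to 0.38 for Gbp9. In the average it ran from -0.28 to 0.21 for Gbp2, -0.11 to 0.39 for Gbp4, -0.39 to 0.19 for Gbp5, -0.12 to 0.39 for Gbp8 and -0.19 to 0.46 for Gbp9. For genotype on NCD it ran from -0.52 to 0.46 for Gbp2, -0.33 to 0.58 for Gbp3, -0.20 to 0.79 for Gbp4, -0.43 to 0.72 for Gbp5, -0.19 to 0.83 for Gbp8 and -0.19 to 1.11 for Gbp9.

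The difference in mean log2 summed value for diet in WT, 0.51, was 1.26 with protein-coding genes rescaled and 1.43 with all 12 libraries rescaled. For diet in Casp11-/- it was -0.26, and leaving out 1 library at a time gave -0.87 to 0.24. Of all genes, 391 were called for diet in WT, against 22 with all 12 libraries, 118 rescaled and 2511 with the spread of only the groups compared. For diet in Casp11-/- 198 were called, against 0 with all 12 libraries and 436 rescaled, and for the average 3289, against 108 and 1806.

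The replicate block, a fit with the replicate number as a term, also called 0 members on the deposited scale, while the genes called rose to 1136 for diet in WT, 1271 for diet in Casp11-/- and 6709 in the average. On the rescaled values it called 2 and 3 members, as without the block. The share of all genes called in that fit is not given here, so these counts cannot be set against it. Under it Gbp3 became -0.22 for diet in WT, Gbp2 -0.11 and Gbp9 -0.059 in the average, and Gbp3, Gbp5 and Gbp8 -0.18, -0.20 and -0.00143 for genotype on NCD. Unknown depth and 2 to 3 libraries per group limit what these values can show.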
